A study of Arabidopsis thaliana with 48 samples.

Results

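A set of 99 genes of Arabidopsis thaliana, out of 32824 with a value, had transcripts that were higher in salt with high light than in Control, while salt, high light or heat alone raised them by less than a set limit or lowered them. They were chosen by wild-type group means of log2(FPKM + 1) less the Control mean, where FPKM is the number of fragments mapped to a gene, scaled by transcript length and library depth. A member had a difference of at least 1.2 in salt with high light and below 0.6 in each single stress, with no lower limit. The members ran from -1.04 to 0.599 in salt, from -0.73 to 0.598 in high light and from -1.63 to 0.594 in heat, and 2, 1 and 6 of them were at or below -0.6. Of 1452 genes that reached 1.2 in salt with high light, the other 1353 had at least 1 single stress at or above 0.6. Many members were low: 58 of the 99 had a Col0 Control mean below 1 FPKM, and 39 had an S+HL mean below 5 FPKM. At such levels log2(FPKM + 1) understates change, so a rise in a single stress can stay below 0.6. With 0.1 added in place of 1, the rule found 181 genes, and 40 of them were among the 99. Because these wild-type values chose the members, they are given as a description and carry no test.

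RNA was taken from whole seedlings 7 days old, of wild-type Columbia (Col0) and of plants mutated in bHLH35 (a transcription factor gene of the basic helix-loop-helix family) in that background. The mutant allele is not given in the sources used here. Each genotype had 8 treatments with 3 libraries each, 48 in all. Control seedlings grew on MS medium without salt at 21 °C under 150 µE of light. Salt (S) was 50 mM in the growth medium from germination, high light (HL) was 700 µE and heat (HS) was 33 °C, the last pair for 1.5 h. The other groups were S+HL, S+HS, HL+HS and S+HL+HS. Seedlings of S alone and of each combination with S had therefore grown on salt for their whole life, while light and heat were new to them.

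Abscisic acid (ABA) is the hormone through which plants respond to water shortage and salt. It blocks clade A protein phosphatases 2C, which frees SnRK2 kinases to activate ABF transcription factors, and these bind promoters at the ABA-responsive element with the core ACGTG. Their targets include late embryogenesis abundant (LEA) proteins and dehydrins, which protect cells as they dry, and several of the phosphatases themselves.

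Of the 99 members, 84 coded for proteins and 15 did not (9 long noncoding RNAs, 2 antisense RNAs, 2 microRNA precursors and 2 small nuclear RNAs). By roles assigned for this description, 15 were grouped as regulators, 7 as LEA or cold and dehydration proteins, 12 as cell wall and surface proteins, 6 as transporters, 18 as enzymes of lipid and other metabolism and 26 as other proteins. They lay on all chromosomes, with 22, 15, 20, 16 and 26 on chromosomes 1 to 5. Only CSLG3 and CSLG2, which code for cellulose synthase-like proteins on chromosome 4, were next to each other.

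Promoters were read because the members were chosen for moving together. The 250 bases before the annotated start of 84 protein-coding members were taken from the RefSeq assembly TAIR10.1 and searched on both strands. The motif ACGTG was found in 47.6% of member promoters (40 of 84), in 37.03% of the promoters of the other protein-coding genes that reached 1.2 in S+HL, and in 22.9% of all 27443 protein-coding promoters. More than 1 site was present in 25% of member promoters, 12.2% of the others that reached 1.2 and 4.99% of all promoters. All 7 promoters of the LEA and cold or dehydration group held ACGTG, against 6 of 15 among regulators and 4 of 12 among cell wall and surface genes. The G-box CACGTG, which contains ACGTG, was found in 20.2%, 11.5% and 6.49% of these sets. The core of the dehydration-responsive element, CCGAC, was found in 16.7%, 14.4% and 11.97%, and the heat shock unit GAANNTTC in 7.14%, 9.7% and 9.55%. These matches are a description of the letters and carry no test.

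Promoters of 5 members whose values are described below are printed 5′ to 3′ in the direction of transcription, with ACGTG and CCGAC, or their reverse complements CACGT and GTCGG, in capitals. No other annotated gene overlaps these windows. HAI3 and EM1 are shown for a pair of ACGTG sites in each, AT5G66780 for ACGTG together with CCGAC, COR413IM1 for a G-box close to the start and TT8 for a single site. In TAIR10.1 they lie at chr2:12608425-12608674 (plus strand), chr3:19214472-19214721 (plus strand), chr5:26663250-26663499 (plus strand), chr1:10289667-10289916 (minus strand) and chr4:6181631-6181880 (plus strand), in the order printed.
HAI3: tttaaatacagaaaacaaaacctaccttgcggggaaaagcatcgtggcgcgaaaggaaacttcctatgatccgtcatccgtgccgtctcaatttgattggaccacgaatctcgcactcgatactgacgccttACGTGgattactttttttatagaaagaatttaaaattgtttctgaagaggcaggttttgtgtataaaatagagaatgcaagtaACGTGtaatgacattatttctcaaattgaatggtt
EM1: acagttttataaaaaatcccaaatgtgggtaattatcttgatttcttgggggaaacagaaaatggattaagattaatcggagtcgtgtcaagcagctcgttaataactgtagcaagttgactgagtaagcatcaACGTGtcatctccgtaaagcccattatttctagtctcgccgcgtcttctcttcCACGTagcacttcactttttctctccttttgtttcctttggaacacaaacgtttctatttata
AT5G66780: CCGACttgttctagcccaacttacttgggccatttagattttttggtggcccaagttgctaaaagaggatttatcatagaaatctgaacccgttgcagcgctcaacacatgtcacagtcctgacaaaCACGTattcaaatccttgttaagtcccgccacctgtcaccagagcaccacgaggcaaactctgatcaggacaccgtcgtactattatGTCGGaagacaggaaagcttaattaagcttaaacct
COR413IM1: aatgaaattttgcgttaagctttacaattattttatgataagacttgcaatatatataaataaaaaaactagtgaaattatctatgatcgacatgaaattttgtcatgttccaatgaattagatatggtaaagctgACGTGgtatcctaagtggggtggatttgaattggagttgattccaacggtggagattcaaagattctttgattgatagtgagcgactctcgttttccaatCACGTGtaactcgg
TT8: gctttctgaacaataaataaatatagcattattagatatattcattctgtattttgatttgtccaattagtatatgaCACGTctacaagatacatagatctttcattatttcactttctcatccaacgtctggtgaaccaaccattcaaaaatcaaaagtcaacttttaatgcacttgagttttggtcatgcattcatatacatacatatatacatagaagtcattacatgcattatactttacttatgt

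The mutated gene was read first. bHLH35 (AT5G57150) stood at 21.99, 20.9 and 27.7 FPKM in the 3 Col0 Control libraries and at 5.68, 4.904 and 3.28 FPKM in the 3 mutant Control libraries. In S+HL it stood at 43.4, 53.9 and 57.5 FPKM in Col0 and 4.21, 6.104 and 4.02 FPKM in the mutant. The genotypes did not overlap in either treatment, although the tables may have been normalized separately. Depth estimated from the steps of low FPKM values was 18.9 to 44.7 fragments per library in units of 1e6, so a floor of 3 fragments equals 0.0672 to 0.158 FPKM at an effective length of 1 kb, covering counting error only. Nothing says whether replicates were grown separately, so p-values measure only the spread between these libraries. Root marker genes also moved: their summed FPKM was 60.2 to 71.9 in Col0 Control, 168 to 266 in S, 135 to 216 in HL and 214 to 275 in S+HL. In the mutant it was 37.5 to 39.3, 204 to 248, 52.2 to 147 and 147 to 295. The list held 8 genes, of which 7 were tested, and all 7 were higher in mutant S+HL than in Control and none was higher or lower than in S, while 6 were higher than in HL. Leaf marker genes fell in 4 of 6 cases in mutant S+HL against Control. The sums in S and in S+HL overlapped in both genotypes, and the part of root RNA in the members' values was not tested. In whole seedlings, fewer cells of a type and less RNA per cell cannot be told apart.

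The medians of the 99 members place the combination beside the other treatments in Col0. The median difference from Control was 0.27 in S, 0.25 in HL, 0.00 in HS and 1.50 in S+HL, all fixed by the rule. Treatments that the rule did not use gave 0.42 in S+HS, 0.00 in HL+HS and 0.59 in S+HL+HS. The medians of the single Col0 S+HL libraries were 1.24, 1.67 and 1.55, and without replicate 1, the lowest, the rule found 151 genes. Of the 99 members, 31 were found whichever of the 15 libraries behind the rule was left out. S+HL was the highest of the 8 treatments for 92 of 99 members. The rule placed it above Control, S, HL and HS for every member, so only S+HS, HL+HS and S+HL+HS were free to exceed it. At the threshold, AT5G64250 (1.202), AT4G16750 (1.21), AT3G03170 (1.23), AT3G15350 (1.23) and AT4G31830 (1.24) were just inside, and WOX4 (1.198), AT4G16146 (1.195), AT1G68500 (1.194), AT1G80520 (1.19) and SIP3 (1.18) were just outside. ABF2, an ABF factor, reached 1.52 in S+HL and was outside because its HL difference was 0.61.

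**Figure D1:**
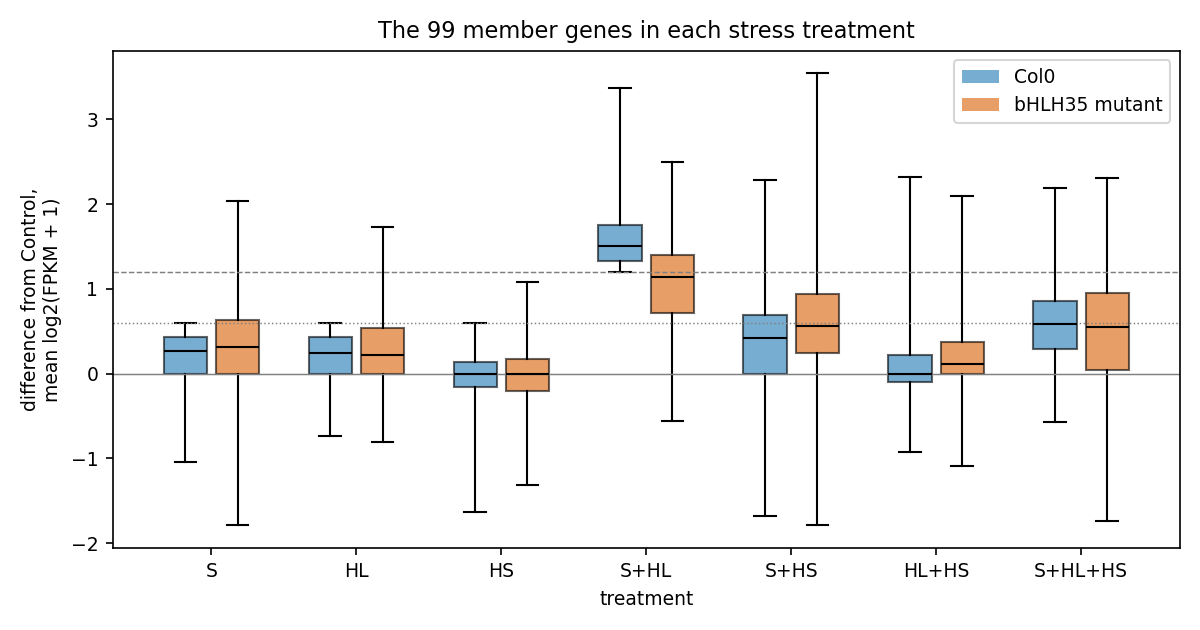
Difference from Control of the 99 members in each of 7 treatments, on the scale of mean log2(FPKM + 1), for Col0 (blue) and the mutant (orange). Boxes span the quartiles with the median as a line, whiskers reach the lowest and highest member, and dashed and dotted lines mark 1.2 and 0.6. In S+HL the median is 1.50 for Col0, whose values chose the members, and 1.15 for the mutant, whose values did not. With all 3 stresses the medians are 0.59 and 0.55.

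Among members grouped as regulators, the AT5G50360 transcript and that of HAI3 stood out in Col0. AT5G50360 codes for a protein annotated with a von Willebrand factor A domain. It was at 0, 0.538 and 1.14 FPKM in Control and 7.33, 19.4 and 11.96 FPKM in S+HL of Col0, and all 9 libraries of S, HL and HS ran from 0.353 to 1.19 FPKM. In the mutant it was at 0.726, 0.486 and 0.672 FPKM in Control and 8.13, 7.19 and 7.97 FPKM in S+HL. The mutant S+HL libraries lay above every Control, S and HL library of the mutant, and the mutant change from Control was 2.43 (SE 0.36, adjusted p 2.6e-05) on the log2(FPKM + 1) scale by limma with Benjamini-Hochberg adjustment over 20675 genes. RefSeq names AT3G48510 as the best match of AT5G50360 and of AT5G63350, and all 3 are members. AT3G48510 reached 1.44, 3.29 and 3.41 FPKM in Col0 S+HL.

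HAI3 codes for a clade A protein phosphatase 2C, a class that restrains ABA signalling, and is itself induced by ABA. Its Col0 Control libraries were at 0.166, 0.0312 and 0.12001 FPKM and its Col0 S+HL libraries at 4.197, 11.3 and 8.02 FPKM. In the mutant, Control was at 0.455, 0.391 and 0.0903 FPKM, S at 0.684, 0.915 and 0.596 FPKM, HL at 0.0302, 0.184 and 0.214 FPKM and S+HL at 6.08, 3.72 and 4.03 FPKM. The S+HL libraries were higher than all of the others named, and the limma change of HAI3 was 2.08 (SE 0.21, adjusted p 4.2e-07) against Control, 1.68 (SE 0.21, adjusted p 2.8e-05) against S and 2.28 (SE 0.21, adjusted p 2.2e-06) against HL.

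BFT, a relative of the flowering regulators FT and TFL1, had 0, 3.11 and 3.17 FPKM in mutant Control, 1.17, 0 and 0 FPKM in S, 3.91, 1.09 and 0.916 FPKM in HL and 5.42, 2.15 and 3.496 FPKM in S+HL. Its limma change was 0.80 (SE 0.54, adjusted p 0.26) against Control and 1.80 (SE 0.54, adjusted p 0.035) against S. BFT overlaps AT5G62050 on the other strand. In all, 39 of the 99 members, 27 of them protein-coding, overlap another annotated gene, and without strand the reads of such pairs cannot be told apart.

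TT8, a basic helix-loop-helix factor that activates anthocyanin and proanthocyanidin genes, was likewise low in Control. Col0 had 0.278, 0.154 and 0 FPKM in Control and 2.48, 4.52 and 4.86 FPKM in S+HL, and the mutant had 0.0682, 0.191 and 0.189 FPKM and 2.36, 2.83 and 2.48 FPKM. The mutant change was 1.63 on the log2(FPKM + 1) scale. TT8 passed the filter on low values in the mutant only through its S+HL libraries, where it had to be high, so this change carries no test. HSFA6A, a heat shock factor of class A, had 0.828, 0.686 and 0.574 FPKM in mutant Control and 2.63, 1.35 and 3.68 FPKM in mutant S+HL, with a limma change of 1.014 (SE 0.28, adjusted p 0.0069). DREB1A, which overlaps AT4G07385 on the other strand and binds the dehydration-responsive element, had 4.403, 4.96 and 2.74 FPKM in Col0 S+HL, where Control ran 0.307 to 0.5704 FPKM. In mutant S+HL it had 4.85, 1.66 and 1.27 FPKM, and its limma change from Control of 0.87 (SE 0.50, adjusted p 0.19) missed the threshold.

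**Figure D2:**
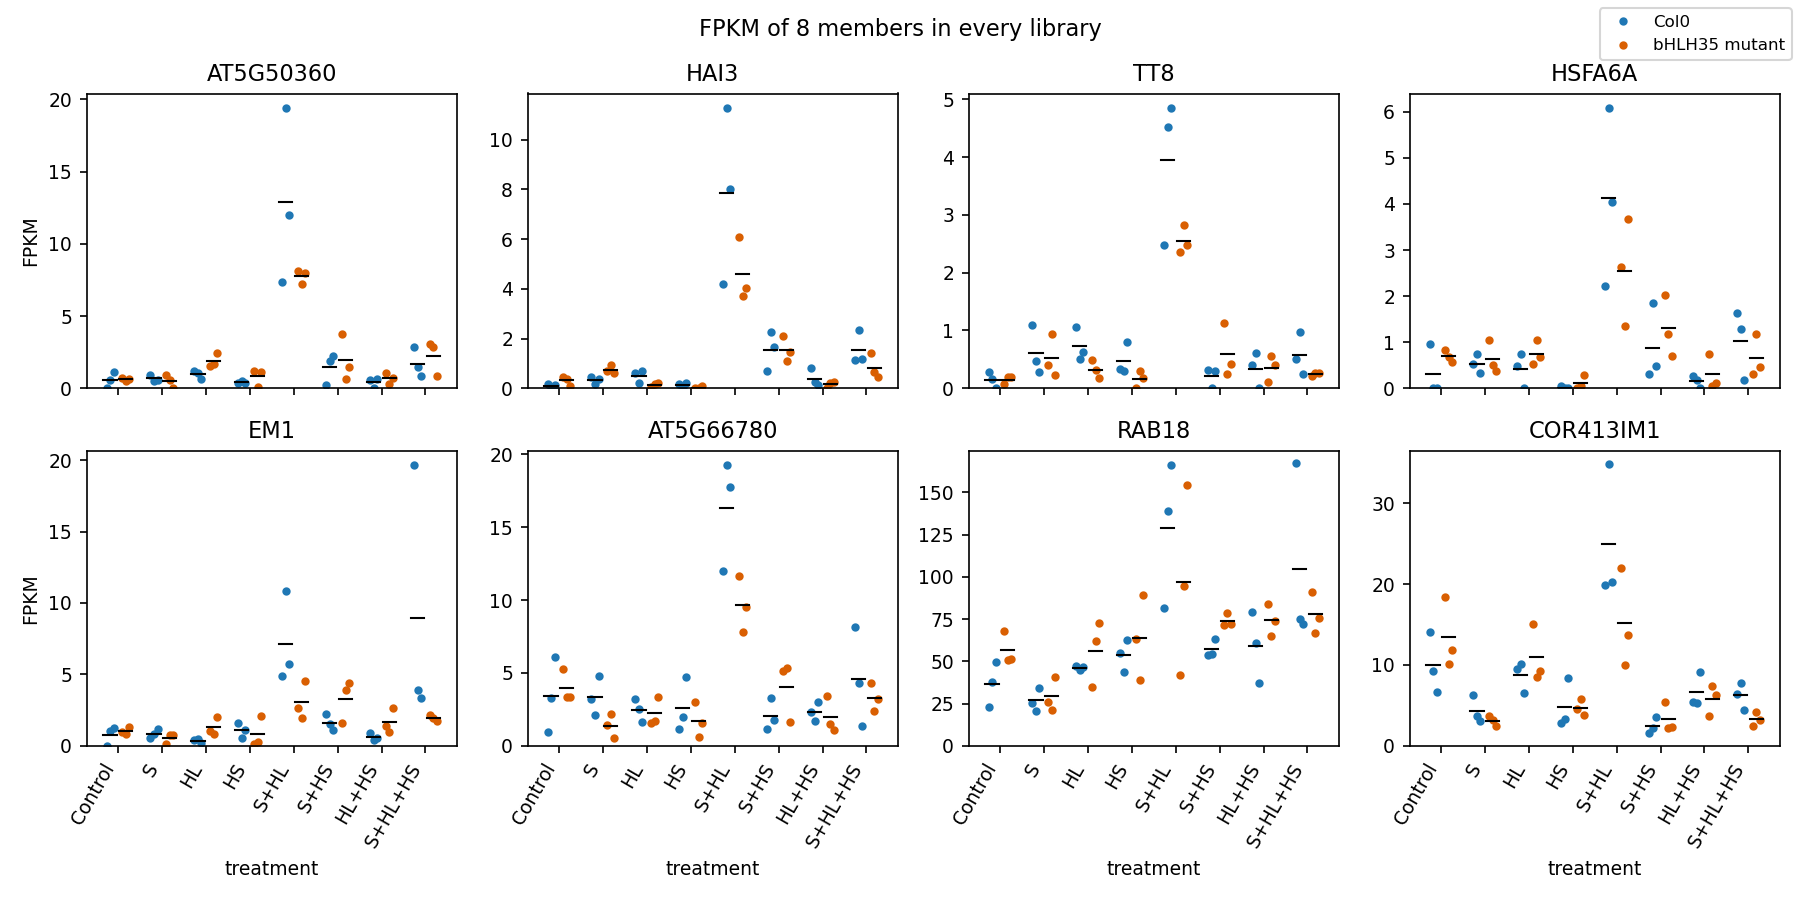
FPKM of 8 members in each library, by treatment, for Col0 (blue) and the bHLH35 mutant (orange), with black lines at the mean of 3 libraries. HAI3 in Col0 reaches 4.197 to 11.3 FPKM in S+HL and at most 2.34 FPKM in every other treatment.

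Of the LEA and dehydration proteins, EM1, a LEA protein of seeds, ran from 0.167 to 1.63 FPKM in the 9 Col0 libraries of S, HL and HS. Col0 had 0, 1.06 and 1.24 FPKM in Control, 4.91, 10.8 and 5.71 FPKM in S+HL and 19.7, 3.89 and 3.31 FPKM in S+HL+HS, where 1 library was far above the others. Mutant S+HL had 2.64, 1.93 and 4.55 FPKM and mutant Control 0.9898, 0.835 and 1.28 FPKM, a change of 0.94 (SE 0.36, adjusted p 0.044) that just passed the limma threshold and lost the call in 8 alternative fits. AT5G66780, annotated as a LEA protein, had 5.301, 3.36 and 3.32 FPKM in mutant Control, 1.44, 2.203 and 0.504 FPKM in S, 1.57, 1.72 and 3.37 FPKM in HL and 11.7, 7.79 and 9.54 FPKM in S+HL. It fell in mutant S by 1.11 on the log2 scale, and in S+HL it was above every mutant Control, S and HL library. Its limma change from Control was 1.10 (SE 0.38, adjusted p 0.028), a call lost in 5 alternative fits.

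For COR413IM1 and RAB18, mutant S+HL passed the threshold against S but not against Control. COR413IM1, a cold-regulated protein of the chloroplast inner envelope, had 18.4, 10.1 and 11.8 FPKM in mutant Control, 3.66, 3.19 and 2.42 FPKM in S and 22.04, 9.94 and 13.7 FPKM in S+HL. Mutant S+HL overlapped Control (limma change 0.14 (SE 0.31, adjusted p 0.76)) but not S (limma change 1.93 (SE 0.31, adjusted p 3.3e-04)), and S alone fell below Control by 1.79 on the log2 scale. RAB18, a dehydrin induced by ABA, had 67.8, 50.6 and 51.1 FPKM in mutant Control, 26.04, 21.4 and 40.6 FPKM in S and 41.9, 94.5 and 154 FPKM in S+HL. Its change against Control was 0.59 (SE 0.36, adjusted p 0.21), which missed the threshold, and against S 1.55 (SE 0.36, adjusted p 0.0071). RAB18 overlaps AT5G66410 on the other strand, and strandedness is not stated, so reads of the pair cannot be told apart.

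Among cell wall and surface genes, all 11 tested in the mutant were higher in S+HL than in Control, where 24.8% of all tested genes were. Leaving out members that passed the filter on low values only through S+HL, the counts were 7 of 10 for regulators, 3 of 5 for LEA and dehydration proteins, 5 of 6 for transporters, 15 of 16 for enzymes, 15 of 19 for other proteins and 1 of 4 for noncoding members. AGP1, an arabinogalactan protein of the cell surface, went from 49.8, 31.5 and 41.8 FPKM in mutant Control to 132, 101 and 117 FPKM in S+HL without overlap, a limma change of 1.50 (SE 0.21, adjusted p 1.7e-05). In Col0 its highest treatment was S+HS with 145, 266 and 203 FPKM, where S+HL had 103, 170 and 137 FPKM, and the groups overlapped. CSLG3 had 14.2, 13.4 and 14.8 FPKM in Col0 S+HL and 2.71, 1.66 and 3.79 FPKM in Col0 S+HS, where it was below its Control range of 4.32 to 5.54 FPKM. GASA3, a small gibberellin-regulated peptide, rose in the mutant by 1.69 (SE 0.47, adjusted p 0.0073) and AT1G05450, of the lipid-transfer family, by 2.07 (SE 0.41, adjusted p 4.6e-04) in limma. AT1G05450 overlaps AT1G05460 on the opposite strand.

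Among transporters and enzymes, PUP1, a purine permease that carries cytokinins and adenine, had 3.91, 4.896 and 3.08 FPKM in mutant Control and 15.2, 8.62 and 11.4 FPKM in S+HL, without overlap, a limma change of 1.34 (SE 0.26, adjusted p 3.4e-04). AT1G67300, a major facilitator family protein, had 8.57, 7.41 and 6.92 FPKM and 18.9, 23.1 and 22.5 FPKM, but S alone already gave 14.4, 15.4 and 17.3 FPKM. AT4G12290, a copper amine oxidase, had 8.23, 13.6 and 12.1 FPKM in mutant Control, 40.3, 36.4 and 51.2 FPKM in S+HL and 41.9, 55.3 and 43.5 FPKM in S+HL+HS. The change on adding heat to S+HL was 0.14 (SE 0.16, adjusted p 0.6) in limma. PPa2, annotated as a pyrophosphorylase, had 73.3, 58.8 and 55.4 FPKM in S+HL and 28.5, 29.6 and 29.7 FPKM in S+HL+HS, without overlap, a limma change of -1.06 (SE 0.21, adjusted p 0.0046). AT2G18220 overlaps PPa2 on the other strand. AT4G33070, a pyruvate decarboxylase, had 0.648, 1.04 and 0.8803 FPKM in mutant Control, 1.13, 0.5502 and 0.422 FPKM in HL and 5.33, 5.402 and 4.85 FPKM in S+HL, a limma change of 1.89 (SE 0.24, adjusted p 4.3e-05) against HL. AT4G02360, of unknown function, had 1.05, 1.27 and 0.703 FPKM in mutant Control, 10.2, 12.4 and 2.67 FPKM in S and 15.01, 7.08 and 10.1 FPKM in S+HL. Its limma change in the mutant was 2.503 (SE 0.43, adjusted p 1.1e-04) in S+HL and already 2.04 (SE 0.43, adjusted p 0.0013) in S alone, and S+HL against S gave 0.46 (SE 0.43, adjusted p 0.56). PP2-B11, a phloem protein 2 family member, rose in mutant S+HL by 1.75 (SE 0.27, adjusted p 3.4e-05) in limma.

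Of the members without protein, 10 rested on 1 Col0 S+HL library, as did 3 protein-coding members, counting values of at least 0.001 FPKM. These 13 transcripts were short, with a median spliced length of 204 bases, and the single libraries held 16.1 to 214 FPKM. Among them were U1.4 at 0, 214 and 0 FPKM in Col0 S+HL and MIR844 at 0, 49.5 and 0 FPKM. For the Col0 S+HL libraries the depth estimate used fragments of 300 bases, the best-scoring of several lengths tried. That is longer than most of these transcripts, and no count of fragments is given for them. 5 members, among them U1.4, were under 0.001 FPKM in all 24 mutant libraries.

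**Figure D3:**
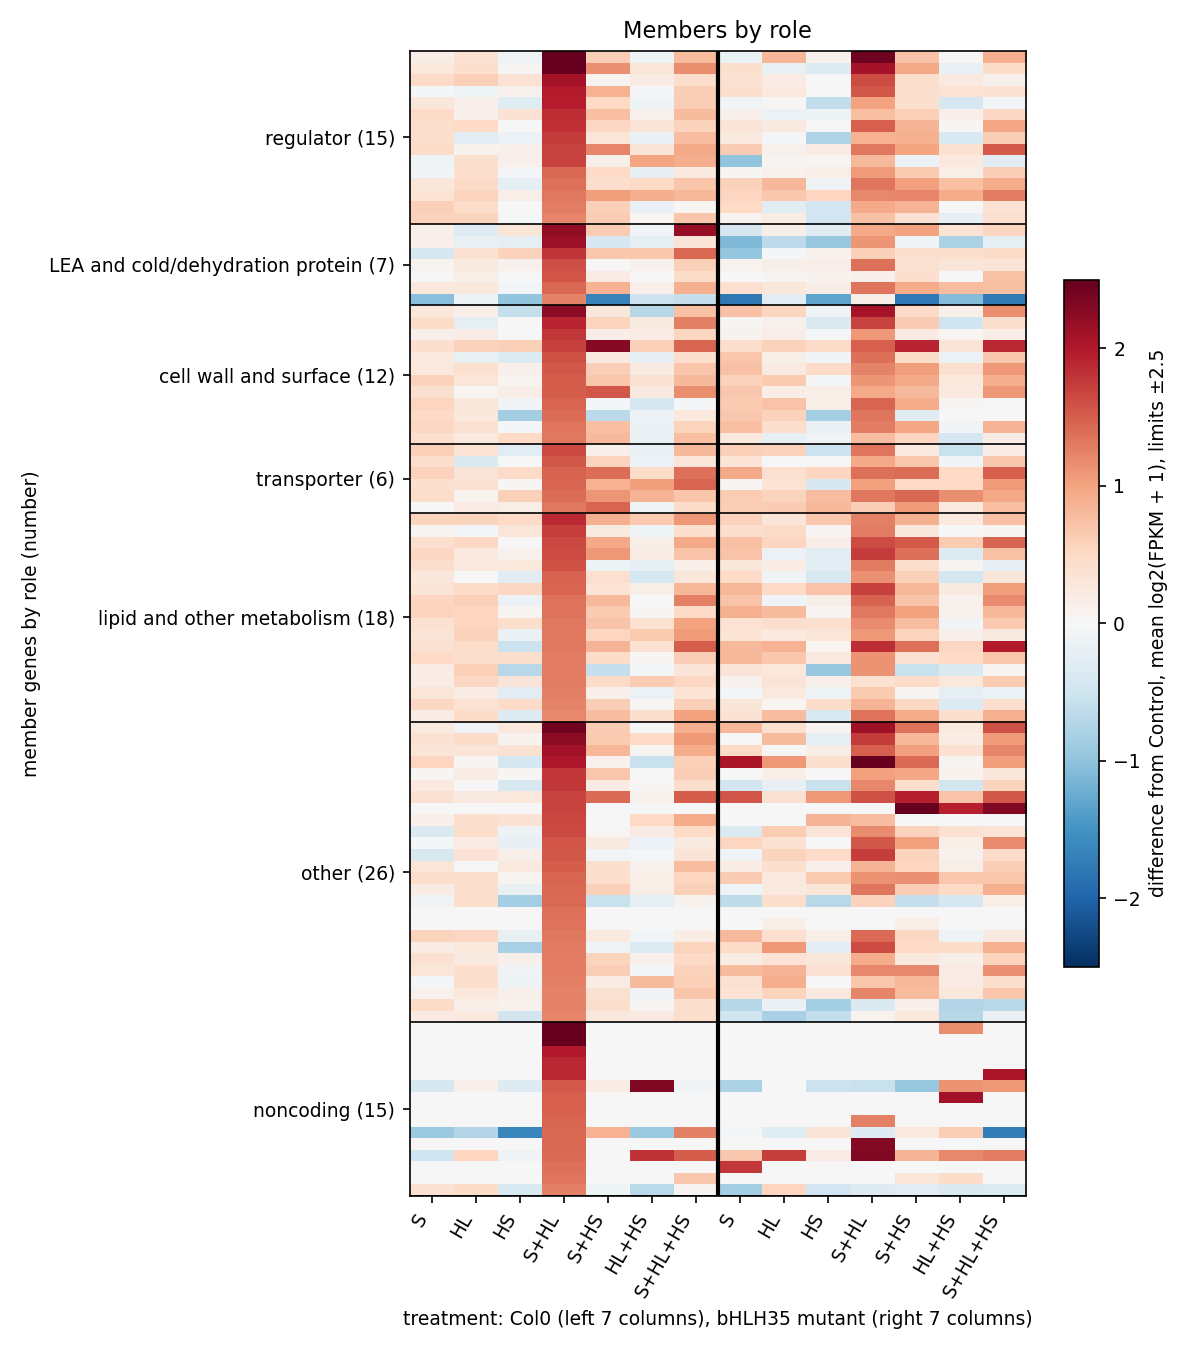
Difference from Control of all 99 members (rows, by role) in 7 treatments of Col0 (left) and of the mutant (right), on the scale of mean log2(FPKM + 1) with colour limits of ±2.5. S+HL has the highest mean for 92 members in Col0, where the rule placed it above Control and the single stresses. It has the highest mean for 64 in the mutant, which the rule did not use, and 5 members were under 0.001 FPKM in all 24 mutant libraries.

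The mutant libraries, which the rule did not use, allow the same comparisons to be tested. The mutant median was 1.15 in S+HL, 0.32 in S and 0.22 in HL, and 46 of 99 members reached 1.2 in S+HL (5.21% of all 32824 genes did). The whole rule was met in the mutant by 19 of 99, against 0.262% of all genes. The 32824 include genes at 0 in every mutant library, while members were chosen for reaching 1.2 in Col0 S+HL. These shares therefore do not show that a rise in mutant S+HL is particular to the members. Of the 46, 27 had a single stress at or above 0.6 in the mutant, and for 21 of these it was S. S+HL was the highest mutant treatment for 64 of 99 members and for 14.3% of 25755 genes above 0.

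In limma, 78 members passed the filter (at least 3 mutant libraries with an FPKM of 1 or more) in the mutant and 21 did not. Of the 78, 7 passed only through the S+HL libraries, where they had to be high. Without these 7, S+HL was higher than Control for 57 of 71 members, and it was lower for none, with 24.8% and 13.1% of all tested genes called. Against S, 33 of 71 were higher and none lower (5.97% and 5.55% of genes), and against HL 44 and none (16.4% and 4.97%). With the 7 the counts were 64, 39 and 51 of 78. All 3 comparisons called 24 of the 71, among them HAI3, AT5G50360, HSFA6A, AT5G66780, GASA3, AGP1, PP2-B11 and AT4G12290. The share of all tested genes called higher in all 3 was not counted, and it cannot exceed the 5.97% called higher against S. Without mutant S+HL replicate 3 the count of 39 against S was 25. The median change of the 71 was 1.25 against Control, where the median of all genes was 0.11.

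Single stresses called far fewer members in the mutant. S raised 18 of 77 members (23.4%) and lowered 2 of 78 (2.56%), beside 19.3% and 7.27% of genes. HL raised 11 of 77 (14.3%) and lowered none, beside 8.1% and 9.29% of genes. HS raised 5 of 78 (6.41%) and lowered 4 (5.13%), beside 14.1% and 14.8% of genes. The 77 are the members that passed the filter without the raised group. The counts for S and HS are near or below the share of all genes, while the count raised by HL is above it. Leaving out single libraries or rescaling moved them by over 1.5 times: S gave 10 and 11 without mutant Control replicates 1 and 2 and 7 without mutant S replicate 2, HL gave 5, 5 and 6 without mutant Control replicates 2 and 3 and mutant HL replicate 2 and 18 with median-of-ratios scaling, and HS gave 3 without mutant Control replicate 1 or 3 or mutant HS replicate 3, 1 without mutant HS replicate 2 and 8 without mutant HS replicate 1. A departure from the sum of S and HL, tested in 1 fit, was called for HAI3 (1.87 (SE 0.30, adjusted p 0.017)) and AT5G66780 (2.86 (SE 0.54, adjusted p 0.039)), where 0.0822% of genes were called above the sum and 0.029% below it. For AT5G66780 the mutant means in S and in HL alone were below Control. Its departure includes these falls and is larger than its rise from Control in S+HL. At an unadjusted p under 0.05, 20 of the 71 members (28.2%) were above the sum and none below it, beside 8.53% of all genes in either direction. With a pseudocount of 0.1 neither HAI3 nor AT5G66780 was called. The count of calls was 0 without mutant Control replicate 1, 4 without mutant HL replicate 1 and between these without each other library of the 4 groups.

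**Figure D4:**
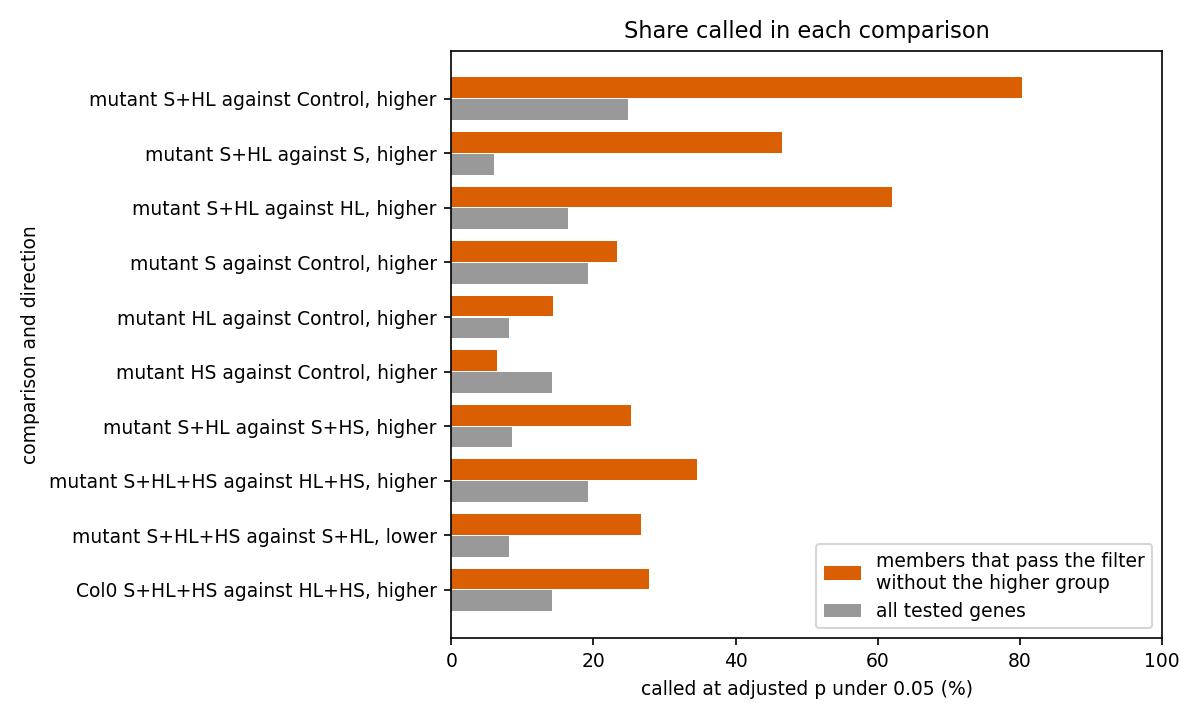
Share of members (orange), without those that passed the filter only through the higher group, and of all tested genes (grey) called at an adjusted p under 0.05, in percent from 0 to 100, for 10 comparisons in the stated direction. In mutant S+HL against Control 80.3% of members and 24.8% of all tested genes are higher, and in S against Control 23.4% and 19.3%.

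Heat was then set beside the combination. Without the 7 members that passed only through S+HL, adding heat to S+HL in the mutant lowered 19 of 71 members. It raised none, with 8.15% of genes lower and 4.34% higher. With the 7 it lowered 25 of 78. Among the 71, the largest falls were COR413IM1 at -1.88 (SE 0.31, adjusted p 0.0013), HAI3 at -1.63 (SE 0.21, adjusted p 3.7e-04) and AT5G50360 at -1.52 (SE 0.36, adjusted p 0.01) in limma. TT8 changed by -1.52, but it is among the 7 that were tested only because they were high in S+HL, so its fall carries no test. HAI3 in mutant S+HL+HS was at 1.403, 0.639 and 0.442 FPKM, below every S+HL library. TT8 was at 0.212, 0.258 and 0.257 FPKM there, just above its Control libraries. The count of 25 was 11 without mutant S+HL replicate 1, and 13 and 15 without mutant S+HL+HS replicates 1 and 3. S+HL was also higher than S+HS in the mutant for 18 of 71 members without the 7, and for 23 with them. It was lower for none (8.54% and 7.63% of genes). The 23 became 13 and 14 without mutant S+HL replicates 1 and 3, and 14 without mutant S+HS replicate 2.

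Salt was next compared under heat and light. In Col0, S+HL+HS was higher than HL+HS for 22 of the 79 members that passed the filter without S+HL+HS. It was lower for none (14.1% and 4.75% of genes). In the mutant the counts were 27 of 78 and none (19.2% and 5.55%). Of the Col0 calls 63.6% were also called in the mutant, which is 51.9% of the mutant calls. The same overlap was not counted over all genes, so these shares are a description and no result about the members. EM1 changed by 2.25 (SE 0.43, adjusted p 0.0021) and AT1G05450 by 1.43 (SE 0.28, adjusted p 0.0024) in Col0 limma. Without Col0 HL+HS replicate 2 the Col0 count was 14, and without mutant HL+HS replicate 1 the mutant count was 16. Light added to S+HS raised 3 members in Col0 and lowered 1 (1.9% and 0.834% of genes), with CSLG3 at 0.93 (SE 0.18, adjusted p 0.0062), PPa2 at 0.89 (SE 0.16, adjusted p 0.0029) and AGP1 at -0.83 (SE 0.20, adjusted p 0.022). The 3 became 1 without Col0 S+HL+HS replicate 1. In the mutant it raised none and lowered AT2G17680 only (1.36% of genes higher and 1.24% lower), with 8 of 78 members (10.3%) and 16.4% of all genes at an unadjusted p under 0.05. AT2G17680 was not called without mutant S+HS replicate 1 or 2 or mutant S+HL+HS replicate 2 or 3.

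Between genotypes, 88 members were tested in S+HS, in HL+HS and with all 3 stresses, which the rule did not use, and limma called none. At an unadjusted p under 0.05 there were 5, 2 and 8 of 88 members (5.68%, 2.27% and 9.09%) and 4.52%, 11.1% and 5.07% of all genes. Such differences also compare the tables. Of all genes, 0.0281% were called higher and 0.108% lower in mutant HL+HS than in Col0, 0.00468% and 0.014% in S+HS, and 0.00468% and 0.0187% in S+HL+HS. For the response to salt added to HL+HS and to light added to S+HS, the difference between genotypes was called for no member in limma, with 4 and 10 of 88 members (4.55% and 11.4%) and 4.02% and 4.87% of all genes at an unadjusted p under 0.05. Of all genes, 0% and 0.00468% were called higher and lower for salt and 0% and 0.014% for light. A p above the threshold does not show that the genotypes act alike. For the single stresses and S+HL the values are given side by side only, with Col0 medians of 1.50 and mutant medians of 1.15 in S+HL. The Col0 values had to reach 1.2 for a gene to be a member and the mutant values did not, so these medians do not compare the responses.

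Genes of the ABA pathway beyond the members were read from lists. RAB18, HAI3, EM1, DREB1A, HSFA6A and TT8 are on these lists and are left out of the counts that follow. The rule used the same Col0 groups, and the genes left out were below 0.6 in each single stress by that rule. The Col0 counts and the contrast with the members are therefore a description. Of 17 ABA and dehydration response genes, limma called 12 higher in Col0 S, 15 in HL and 17 in S+HL, and in the mutant 12, 13 and 17. Their medians were 1.015, 1.91 and 3.74 in Col0, where the medians of all genes were 0.096, -0.0022 and 0.087, and 13.6%, 10% and 23.2% of genes were called higher and 5.17%, 7.7% and 12.8% lower. RD29A rose in Col0 S by 1.76, in HL by 2.71 and in S+HL by 4.89, and is no member. Of 15 ABA signalling genes, 1 was higher in Col0 S, 7 in HL and 11 in S+HL, with 2 lower in HL. HAI1 changed by 1.17 in S, which missed the threshold, by 2.37 in HL and by 5.22 in S+HL. HAI3 of the same class was below 0.6 in each single stress by the rule. It rested on about 5, 1 and 3 fragments in the Col0 Control libraries, where log2(FPKM + 1) understates change. The values of HAI1 and HAI3 therefore do not compare their responses to single stresses. All 5 anthocyanin genes were higher in S and in S+HL in both genotypes. Of 9 tested seed storage, oil body and LEA genes, 1 was higher in Col0 S+HL. In Col0 S+HL limma also called 17 of 22 tested stress NAC, MYB, AP2 and zinc finger factors, 9 of 10 wax, cutin and lipid transfer genes, 7 of 7 suberin genes, 8 of 10 jasmonate genes and 3 of 3 high light genes higher and none lower. Of 14 genes of proline, raffinose and sugar transport 9 were higher and 3 lower, and of 9 genes of ABA synthesis and breakdown 3 were higher and 1 lower.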

How the data were processed

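Paired-end reads came from a NovaSeq instrument, and their quality was controlled with Trim Galore v0.6.4 plus FastQC v0.11.9, per the series' design text. The submitters' processing notes name HISAT2 2.2.1 and TAIR10. The tool behind the FPKM values, the strand setting and whether both genotype tables were normalized together are not given in the sources used here. The authors deposited FPKM values in 1 table per genotype, and 2 identifiers on a pair of lines were summed. Groups and replicate numbers came from the titles.

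Differences and tests used log2(FPKM + 1), which understates the change of low genes. limma 3.58.1 in R 4.3.3 was fitted with a variance trend over all groups of a genotype (20675 genes in the mutant, 20744 in Col0) or over all 48 libraries (21359 genes), after a filter of FPKM at least 1 in at least 3 libraries. P-values were two-sided and adjusted by Benjamini-Hochberg over all genes, and a call is an adjusted p under 0.05. Tests of members used only libraries or contrasts that did not choose them. Members were left out of the counts over gene lists, and members that passed the filter only through the higher group were left out of the counts the text leads with. The fit was tested on simulated data. The members, roles and gene lists were chosen with earlier results of these data known. Names and coordinates come from TAIR10.1, where 32539 of 32824 identifiers were found.

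Genes named are bHLH35, members on the lists, the 30 members with the largest Col0 S+HL difference and a mean of at least 5 FPKM, those beside the thresholds, and per contrast the 3 largest calls in each direction at that level. AT5G08285 and others of the 30 are given only in counts. CSLG2, AT2G17680, AT3G48510, AT5G63350, RD29A, HAI1 and ABF2 were chosen after their values were seen. Depth was read from FPKM steps of 12877 genes, where 91.4% to 96.7% of low values were whole fragments within a tolerance of 0.1. Alternatives changed the pseudocount, filter, scaling, trend, groups in the fit, replicate block and libraries.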

Additional observations from a re-analysis of the deposited data

How the results depend on the processing

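The numbers are of members called, in the direction the report gives, unless said otherwise, over all members tested, including the 7 that passed the mutant filter only through S+HL. A pseudocount of 0.1 gave 181 rule members, 40 of them shared with the 99, and called 0 departures from the sum, 14 in mutant S+HL against S+HS, 14 in S+HL+HS against S+HL and 0 in S+HL+HS against S+HS. A mean FPKM of at least 5 left fewer members tested by construction. It called 22 in mutant S+HL against Control, 15 against S, 17 against HL and 11 against S+HS, 0 departures, 9 in S, 6 in HL, 2 in HS, 9 in S+HL+HS against S+HL, 9 against HL+HS and 0 against S+HS, and 11 in Col0 S+HL+HS against HL+HS. Median-of-ratios scaling called 1 departure, 18 in mutant HL, 17 in mutant S+HL+HS against HL+HS and 0 against S+HS. Moderation without a trend called 4 departures. Fits of the contrasted groups alone called 1 in mutant HS, 0 in mutant S+HL+HS against S+HS and 1 in Col0 S+HL+HS against S+HS. The cause of each shift not due to construction was not tested.

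Leaving out 1 library at a time gave 86 to 151 rule members. In the mutant the ranges were 55 to 63 for S+HL against Control, 25 to 35 against S, 34 to 43 against HL and 13 to 25 against S+HS, 0 to 4 departures, 7 to 21 in S, 5 to 10 in HL, 1 to 8 in HS, 11 to 24 for S+HL+HS against S+HL, 16 to 23 against HL+HS and 0 to 1 against S+HS. In Col0 they were 14 to 21 for S+HL+HS against HL+HS and 1 to 4 against S+HS. The comparisons between genotypes stayed at 0 to 0. Where this left a group with 2 libraries, all groups shared 1 spread.

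The replicate numbers were not used to pair the samples in the main fits. Of 45 pairs, 9 had a correlation of deviations over 0.1, and no comparison had every pair over it. Such correlations cannot show whether replicates of the same number were grown or handled together. A replicate block called 64, 38, 50 and 22 for mutant S+HL against Control, S, HL and S+HS, and 24 for S+HL+HS against S+HL.

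For members tested singly in mutant S+HL against Control, 325 alternative values kept direction and call, 19 lost the call, 1 gained it and none reversed. EM1 lost it in 8, AT5G66780 in 5, AT5G15190 in 3, GASA3 in 2 and HSFA6A in 1, and RAB18 gained it in 1. Low values limit the rest, since 21 members did not pass the FPKM filter in the mutant.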
